A study of Mus musculus with 2 samples.

Results

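Cathepsins and lysosomal proteins were described as a set of 9 genes out of the 32285 genes in the count tables: the cysteine cathepsins Ctsb, Ctsl, Ctss and Ctsz, the aspartic cathepsin Ctsd, the asparaginyl endopeptidase legumain (Lgmn), the membrane protein Lamp1, the acid lipase Lipa and the cholesterol carrier Npc2. The set is a list of gene names, and all 9 were found in both tables. The study profiled live CD45+ cells sorted from the lamina propria of the mouse colon, the connective tissue under the gut epithelium, with droplet single-cell RNA sequencing of transcript 5′ ends. There were 2 libraries, 1 wild type and 1 with the label E4BP4 Transgenic, both from C57BL/6 mice aged 8 weeks. The transgenic animals overexpress E4BP4, a transcription factor encoded by Nfil3, in macrophages; the promoter that drives the transgene is not given in the labels. Both groups drank 2% dextran sulfate sodium (DSS), a polymer that injures the colon epithelium, for 7 days. They then recovered for 7 days and tissue was taken on day 14, so both libraries come from colon recovering from colitis and neither from an untreated colon. The labels do not say how many animals each library pools.

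Lysosomes are acidic organelles in which material taken up by endocytosis, phagocytosis or autophagy is broken down. Cathepsins are proteases made as inactive precursors that mature in the acidic lumen, where legumain cuts several of them; cathepsin S also trims the invariant chain of MHC class II in antigen-presenting cells. Lamp1 is a heavily glycosylated protein of the limiting membrane, Lipa frees cholesterol and fatty acids from lipoprotein esters, and Npc2 hands that cholesterol on for export. Macrophages are rich in lysosomes, and in the inflamed colon they clear dead cells and bacteria.

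All 9 genes are protein coding in the GENCODE annotation of the mm10 assembly. Ctsb spans 63122462 to 63145923 of chromosome 14 on the plus strand and Ctsl 64359337 to 64370890 of chromosome 13 on the minus strand. Ctss spans 95526786 to 95556403 of chromosome 3 on the plus strand and Ctsz 174427493 to 174439039 of chromosome 2 on the minus strand. Ctsd spans 142375911 to 142388038 of chromosome 7 on the minus strand. Lgmn and Npc2 share chromosome 12, at 102394084 to 102439813 and 84754562 to 84773152, both on the minus strand. Lamp1 lies at 13159161 to 13175338 of chromosome 8 on the plus strand and Lipa at 34492318 to 34527474 of chromosome 19 on the minus strand. The annotated extent of Ctsb overlaps Fdft1, that of Ctsz overlaps Nelfcd and that of Lamp1 overlaps Grtp1, in each case on the opposite strand. These neighbours had 818, 669 and 112 UMIs (unique molecular identifiers, 1 per captured transcript molecule) in all clustered cells. Ctsd also overlaps Gm49369 on its own strand, a gene model with no row in the tables.

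Promoter windows from RefSeq (GRCm38.p6, from 250 bases before to 50 after a start site) were at hand for 8 of the 9 genes. The E-box CACGTG, a palindrome read the same on both strands and the core of the site bound by the lysosomal regulator TFEB and its relatives, occurred in the windows of 4 genes, Ctsd, Ctsl, Lamp1 and Lgmn, against 8.09% of the 27025 genes with a window (7.15% of all 32851 windows). The longer palindrome TCACGTGA, which contains that E-box, was found for Ctsd alone and for 1.12% of genes. TTACGTAA and TTATGTAA (TTACATAA on the other strand), both forms of the D-box that E4BP4 binds, were in the windows of 0 of the 8 and of 0.126% and 1.11% of genes. These are letter matches in a short window and no measure of binding. Stretches that hold E-boxes are printed for these 4 genes with CACGTG in capitals, each on the strand of its gene. Lamp1 carries 4 copies. A link between these motifs and the ratios between the libraries was not tested. The Ctsd window holds 2 E-boxes, of which the copy within TCACGTGA is shown. The stretches shown for Ctsd, Lgmn and Ctsl lie inside the longer gene spans given above, because the RefSeq start used is downstream of the GENCODE one.
Ctsd chr7:142387908-142387937 (110 to 81 bases before the start, minus strand): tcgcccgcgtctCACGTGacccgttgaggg
Lamp1 chr8:13159091-13159160 (70 to 1 bases before the start, plus strand): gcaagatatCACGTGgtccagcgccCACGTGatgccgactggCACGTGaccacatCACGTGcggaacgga
Lgmn chr12:102439113-102439172 (80 to 21 bases before the start, minus strand): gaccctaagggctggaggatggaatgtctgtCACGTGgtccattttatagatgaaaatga
Ctsl chr13:64370739-64370768 (248 to 219 bases before the start, minus strand): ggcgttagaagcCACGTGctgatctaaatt

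The deposited metadata assign 6466 of 9855 wild type barcodes and 7026 of 10143 barcodes of the library labelled transgenic to clusters, with medians of 2700 and 2427.5 UMIs per cell. The barcodes left out of the clusters hold 70.4% and 66.1% of the UMIs, and no clustered cell has more than 2213 genes, so most transcript-rich barcodes lie outside the clusters; they are described separately. The libraries have 142 barcode sequences in common, 67 of them among clustered cells, and no ratio of a member moved by over 1.5 times without these cells. Of the 10 coarser clusters, 6 carry the markers of a known class: B-like (2410 wild type and 2236 other cells), macrophage-like (664 and 1106), monocyte-like (814 and 437), neutrophil-like (648 and 167), dendritic-like (132 and 282) and fibroblast-like (103 and 107). The other 4 stayed unnamed and are called by number: cluster 2 (led by Lef1, Tcf7 and Csf2), cluster 4 (Gzma, Il17a and Xcl1), cluster 5 (Mcpt1 and Mcpt2) and cluster 7 (Hbb-bs and Fcgbp). Only 12.1% and 27.3% of cluster 5 cells held a UMI of a mast cell marker. In the finer deposited clustering, most of them (258 of 356 and 362 of 501) belong to finer cluster 7, led by Retnla and Zeb2. Most cells of cluster 7 (334 of 395 and 330 of 384) belong to finer cluster 2. There 95.8% and 97.3% of cells held a B marker UMI. Ptprc, which encodes CD45, was seen in 10.7% and 15.0% of fibroblast-like cells against 56.3% to 92.2% of cells in the other clusters.

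Nfil3, the gene named by the genotype, was not higher in macrophage-like cells of the library labelled transgenic. It stood at 84.4 CPM (counts scaled to a total of 1e6 UMIs) in the wild type (190 UMIs) and at 73.8 CPM (272 UMIs), for a ratio of 0.874 with a 95% interval of 0.724 to 1.06. Monocyte-like cells held 272 and 235 CPM of Nfil3 and neutrophil-like cells 258 and 363 CPM. These counts give no check of the label, and whether transcripts of the transgene would be counted as Nfil3 is not given in the labels. All values below are CPM of UMIs summed over the cells of a cluster in 1 library, the wild type first; ratios are the library labelled transgenic over the wild type. Intervals on levels are exact Poisson, those on ratios exact conditional binomial, at 95%, and both cover counting error only. With 1 library per genotype no difference between the genotypes can be tested, and effects of animal, library and genotype cannot be told apart.

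The members were concentrated in the mononuclear phagocytes. In the wild type library Ctsb, Ctsd, Lgmn and Lamp1 were highest in the macrophage-like cluster with an interval clear of the next, and Ctsz and Lipa were highest there with overlap. Ctss and Npc2 were highest in the monocyte-like cluster and Ctsl in the fibroblast-like one. In the library labelled transgenic the highest cluster was the same for 8 members and the neutrophil-like one for Ctsd. The span from the highest to the lowest cluster in the wild type was 40.1-fold for Lgmn, 31.1-fold for Ctsl, 31.0-fold for Ctss and 22.0-fold for Ctsb, against 6.45-fold for Lamp1 and 3.90-fold for Lipa. UMI levels of different genes are not compared with each other.

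**Figure D1:**
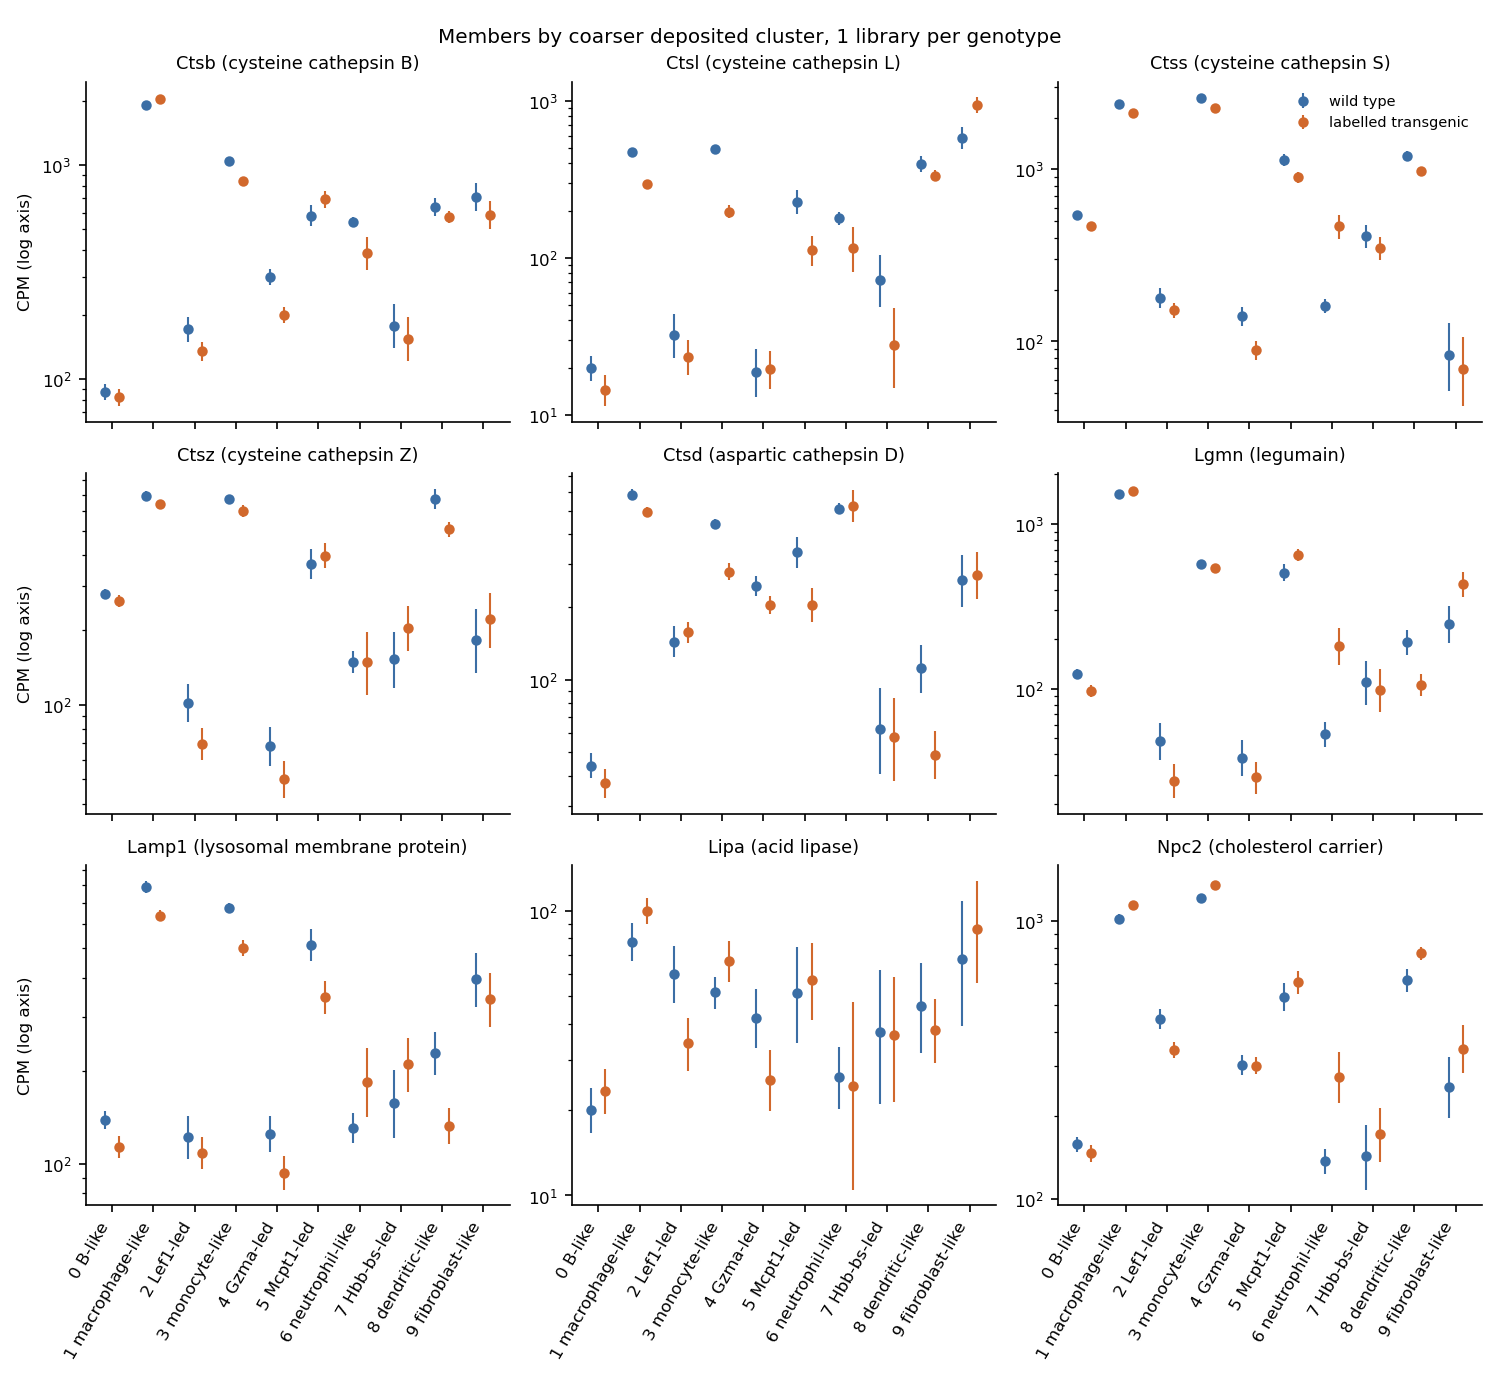
Level of each of the 9 genes (CPM, log axis) in the 10 coarser clusters, with the wild type library in blue and the library labelled transgenic in orange; points are summed UMIs over the cells of a cluster and bars exact Poisson 95% intervals. Lgmn reaches 1527 and 1593 CPM in macrophage-like cells, while Ctsl peaks in fibroblast-like cells at 584 and 940 CPM.

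Among the cysteine cathepsins, Ctsb, a broad protease of late endosomes and lysosomes, stood at 1907 CPM in wild type macrophage-like cells and at 2038 CPM in the library labelled transgenic. Monocyte-like cells held 1045 and 844 CPM. The levels then ran through fibroblast-like (711 and 586), dendritic-like (638 and 574), cluster 5 (581 and 692) and neutrophil-like cells (540.0 and 387), where neighbours in the wild type order had overlapping intervals. Cluster 4 (299 and 199.8), cluster 7 (178 and 154), cluster 2 (170.5 and 134) and B-like cells (86.6 and 81.9) were lowest in both libraries. A Ctsb UMI was present in 91.4% and 93.4% of macrophage-like cells and in 19.5% and 17.8% of B-like cells. Thinned to 1000 UMIs per cell, for which 63 and 72 macrophage-like and 106 and 88 B-like cells were too shallow, these shares were 75.4% and 77.6% against 8.39% and 8.08%. Among the finer clusters Ctsb stood at 484 and 283 CPM in finer cluster 8, led by Il17a and Trdv4, and at 153 and 148 CPM in finer cluster 4, led by Gzma and Ccl5.

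Ctss, the protease of the class II pathway, was highest in monocyte-like cells, at 2588 and 2278 CPM, followed by macrophage-like cells at 2393 and 2119.6 CPM. Dendritic-like cells (1198 and 983) and cluster 5 (1134 and 899) had overlapping intervals. B-like cells, which also present antigen, stood at 544 and 466 CPM and cluster 7 at 408 and 349 CPM. Clusters 2 (179 and 152) and 4 (139.9 and 88.8) were lower, and fibroblast-like cells lowest, at 83.4 and 68.9 CPM. Neutrophil-like cells were among the low clusters in the wild type and level with B-like cells in the library labelled transgenic, at 161 and 466 CPM. The fibroblast-like cells serve as the background share for this gene: a Ctss UMI was seen in 15.5% and 15.0% of them at median depths of 2320 and 2720 UMIs, whereas 72.5% and 65.9% of B-like cells had one at 2445 and 2235. Thinned, the shares were 7.46% and 5.53% (with 21 and 17 cells too shallow) against 42.4% and 38.7%, so B-like cells lay above that background in both libraries.

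Ctsz, a carboxypeptidase, was nearly level across the myeloid clusters that present antigen. In the wild type the macrophage-like (692 CPM), dendritic-like (675 CPM) and monocyte-like clusters (671 CPM) overlapped. In the library labelled transgenic they stood at 642, 509 and 600.5 CPM, and the dendritic-like cluster lay below the others. Cluster 5 followed at 369 and 399 CPM and B-like cells at 280.0 and 261 CPM. Fibroblast-like cells (183 and 220.5), cluster 7 (153 and 204) and neutrophil-like cells (149 and 148) overlapped one another in the order of levels, while clusters 2 (102 and 69.5) and 4 (68.3 and 50.2) were lowest.

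Ctsl, an endopeptidase of lysosomes that is also secreted, ranked the clusters differently. Its highest coarser cluster was the fibroblast-like one, at 584 CPM in the wild type and 940.5 CPM in the library labelled transgenic. In the wild type the monocyte-like (497 CPM), macrophage-like (472 CPM) and dendritic-like (398 CPM) clusters followed, each overlapping the next higher. In the library labelled transgenic the order was dendritic-like (335 CPM), macrophage-like (295 CPM) and monocyte-like (197 CPM), and the last was clear of the others. Cluster 5 (228 and 112), neutrophil-like cells (179 and 115) and cluster 7 (72.5 and 27.9) were intermediate. Cluster 2 (32.4 and 23.4), B-like cells (19.8 and 14.4) and cluster 4 (18.8 and 19.5) were lowest and are taken as background. Shares of cells with a Ctsl UMI were 58.7% and 47.6% in macrophage-like cells, at median depths of 3151 and 3082 UMIs, against 4.81% and 3.40% in B-like cells. After thinning they were 31.9% and 22.1% against 1.97% and 1.55%.

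The finer clusters placed the peak of Ctsl and Ctsb in a small group of cells. Finer cluster 14, led by Siglech, Cox6a2 and Bst2, of which Siglech encodes a surface receptor of plasmacytoid dendritic cells, holds 22 wild type and 48 other cells, under the 50 required for the comparison of libraries. Its Ctsl level was 2163 CPM in the wild type and 1885 CPM in the library labelled transgenic, for a ratio of 0.872 (0.748 to 1.02). This was above the fibroblast-like finer cluster (584 and 964 CPM) in both libraries. Ctsb was also highest there, at 2377 and 2362 CPM, ahead of the macrophage-like finer cluster at 1977 and 2056 CPM. In the wild type Ctsz was highest there too, at 795 CPM, but overlapped the macrophage-like finer cluster at 710 CPM. A UMI of Ctsl was present in 100% and 97.9% of its cells and a UMI of Ctsb in 100% and 100%. Finer cluster 9, which holds 108 of 132 and 225 of 282 dendritic-like cells, stood at only 77.9 and 39.2 CPM of Ctsl and 327 and 248 CPM of Ctsb, so the dendritic-like level of Ctsl rests on the few cells of cluster 14. With the finer clusters of the dendritic-like cluster weighted equally, cluster 14 among them, Ctsl there stood at 1100.0 and 977 CPM in place of 398 and 335, and Ctsb at 1328 and 1308 CPM in place of 638 and 574. By contrast Lgmn stood in it at 85.5 and 90.8 CPM, on 10 and 24 UMIs, and Lamp1 at 171 and 129 CPM.

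Ctsd, the main aspartic protease of lysosomes, was the only member for which neutrophil-like cells were among the 2 highest clusters. Macrophage-like cells held 584 and 496 CPM, neutrophil-like cells 511 and 524 CPM and monocyte-like cells 442 and 279.9 CPM. The macrophage-like and neutrophil-like clusters overlapped in the library labelled transgenic but not in the wild type. Cluster 5 (336 and 204), fibroblast-like cells (258 and 272), cluster 4 (245 and 204) and cluster 2 (144 and 157) followed. Dendritic-like cells were low, at 111 and 48.9 CPM, near cluster 7 (62.5 and 57.9) and B-like cells (44.0 and 37.3).

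Lgmn, which processes cathepsins and antigens, had the widest spread over clusters in the wild type, with macrophage-like cells at 1527 CPM in the wild type and 1593 CPM in the library labelled transgenic. Monocyte-like cells stood at 573 and 541 CPM and cluster 5 at 505 and 649 CPM. Fibroblast-like cells held 246 and 431 CPM, dendritic-like cells 191 and 105 CPM and neutrophil-like cells 52.9 and 182 CPM. B-like cells (123 and 96.9), cluster 7 (110.1 and 98.6), cluster 2 (48.1 and 27.6) and cluster 4 (38.1 and 28.9) were low in both libraries.

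Lamp1 spread over the clusters less than the proteases did. Macrophage-like cells had 789.6 and 637 CPM, monocyte-like cells 675 and 502 CPM, cluster 5 513 and 347 CPM and fibroblast-like cells 397 and 341 CPM. Dendritic-like cells followed at 228 and 133 CPM. From there down, cluster 7 (158 and 210.1), B-like cells (139 and 113), neutrophil-like cells (131 and 185), cluster 4 (125 and 93.3) and cluster 2 (122 and 108) each overlapped the next higher in the wild type, so their order was not resolved.

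Of the lipid-handling members, Npc2 was highest in monocyte-like cells, at 1208 and 1344 CPM, then in macrophage-like cells at 1016 and 1138 CPM. Dendritic-like cells (613 and 765), cluster 5 (533 and 603), cluster 2 (446 and 345) and cluster 4 (304 and 302) followed, so that clusters 2 and 4 held more Npc2 than B-like cells (158 and 146). Fibroblast-like cells stood at 254 and 348 CPM, cluster 7 at 143 and 171 CPM and neutrophil-like cells at 137 and 275 CPM. Lipa was sparse everywhere. Its highest level was in macrophage-like cells, at 77.7 and 99.5 CPM on 175 and 367 UMIs, followed in the wild type by fibroblast-like cells (67.5 and 86.1), cluster 2 (59.98 and 34.2), monocyte-like cells (51.6 and 66.5), cluster 5 (51.5 and 57.1), dendritic-like cells (46.3 and 38.2), cluster 4 (42.1 and 25.5), cluster 7 (37.5 and 36.4), neutrophil-like cells (26.1 and 24.2) and B-like cells (19.95 and 23.3). Each of these overlapped the next higher in both libraries, so neighbours in the order of Lipa levels were not resolved at this depth.

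The 2 libraries were then compared within clusters. Over the 90 pairs of a member and a coarser cluster the ratio was below 1 in 61 and above 1 in 29. The share of all genes below 1 was not counted, and the pairs share 2 libraries, so this split is only descriptive. The median log2 ratio of all genes ran from -0.12 in cluster 7 to 0.08 in monocyte-like cells, apart from 0.63 in neutrophil-like cells. A ratio of at least 1.5 or at most its inverse, with at least 20 UMIs over both libraries, is called past 1.5-fold here. All 90 pairs had as many UMIs, and 14 were past it lower and 5 higher. Of all genes with as many UMIs, 12.8% of 10665 were past 1.5-fold in B-like cells, 17.2% of 10213 in macrophage-like cells, 18% of 9590 in cluster 2 and 23.9% of 9302 in monocyte-like cells. The share was 16.5% in cluster 4, 27.9% in cluster 5, 62.3% of 6048 genes in neutrophil-like cells, 28.1% in cluster 7, 22.9% in dendritic-like cells and 34.8% of 4808 genes in fibroblast-like cells. Beside these shares the counts of members past 1.5-fold are not read as a result about the set. Ctsl was past it in 6 of 10 clusters, lower in 5 and higher in 1, while Ctsb and Ctsz were past it in 0 of 10.

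**Figure D2:**
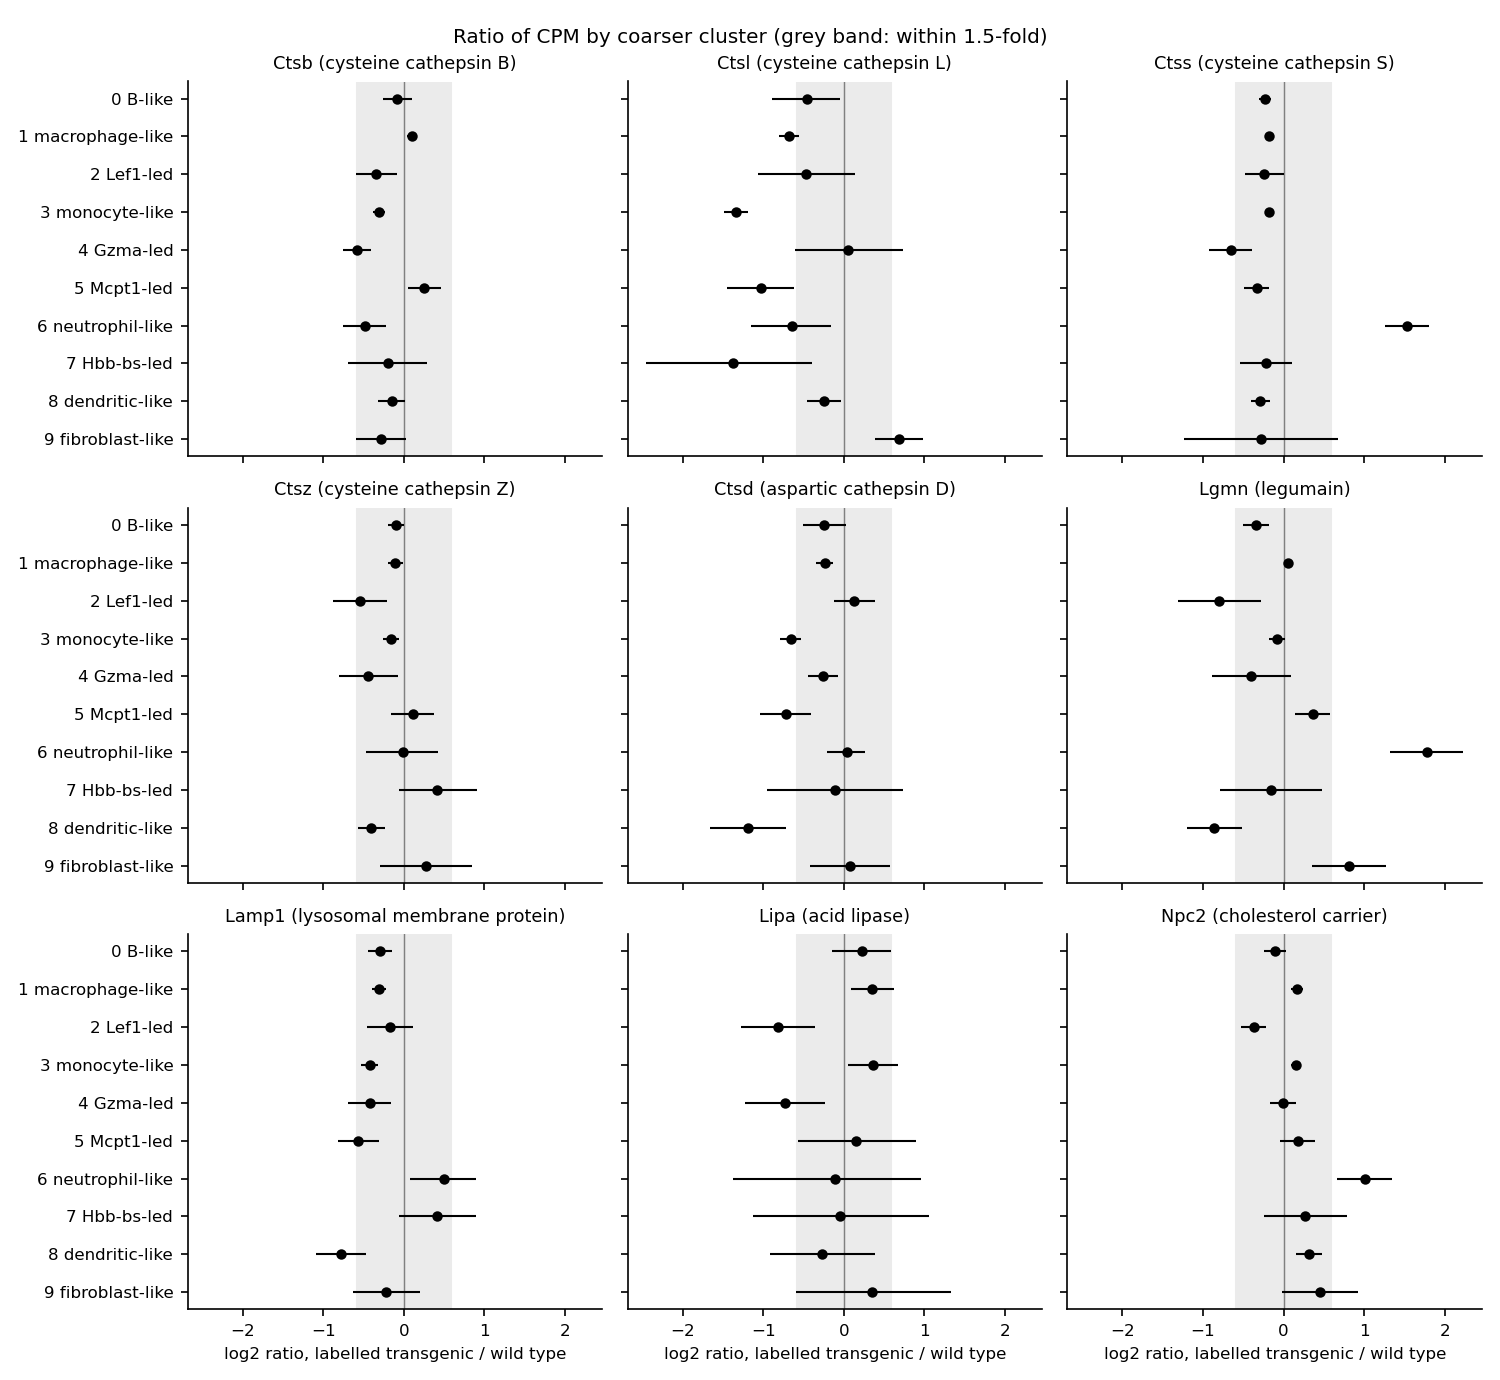
Log2 ratio of CPM, library labelled transgenic over wild type, for each of the 9 genes in the 10 coarser clusters; bars are 95% intervals for counting error and the grey band marks ratios within 1.5-fold. Ctsl lies left of the band in 5 clusters, with a ratio of 0.396 in monocyte-like cells, and Ctss and Lgmn lie right of it in neutrophil-like cells, with ratios of 2.90 and 3.43.

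In macrophage-like cells, the cell type in which the transgene is said to act, 8 of the 9 members lay within 1.5-fold. None was past it higher and 1 was past it lower, where 8.66% of all genes were past it higher and 8.52% lower. That gene was Ctsl: 1062 UMIs or 472 CPM in the wild type and 1087 UMIs or 295 CPM in the library labelled transgenic, for a ratio of 0.625 (0.574 to 0.681). Its ratio ranged from 0.613 to 0.656 over the alternative settings. The median log2 ratio of the 9 was -0.11, against -0.04 for all genes tested.

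The other 8 members differed less in macrophage-like cells. Lamp1 had a ratio of 0.807 (0.758 to 0.858), Ctsd of 0.849 (0.791 to 0.912), Ctss of 0.886 (0.855 to 0.917) and Ctsz of 0.927 (0.869 to 0.989). Lgmn was at 1.04 (1.00 to 1.09), Ctsb at 1.07 (1.03 to 1.11), Npc2 at 1.12 (1.06 to 1.18) and Lipa at 1.28 (1.07 to 1.54). The lipid-handling genes had the highest ratios of the set, and the same held in monocyte-like cells, where Npc2 was at 1.11 (1.06 to 1.16) and Lipa at 1.29 (1.04 to 1.59). Markers of other cells differed within the macrophage-like cluster too. NK markers summed to 30.2 and 250.1 CPM, with 6 of 7 higher in the library labelled transgenic and 3 and 1 of them at 0, T markers to 229 and 524 CPM, with 10 of 10 higher, and neutrophil markers to 508 and 85.4 CPM, with 1 of 10 higher. These 3 sums moved in the same directions in every coarser cluster. NK ratios ran from 1.69 in cluster 4 to 35.0 in neutrophil-like cells, and T ratios from 1.07 to 8.94 in the same clusters. Neutrophil marker ratios ran from 0.038 in cluster 5 to 0.38 in neutrophil-like cells. Without the cells that hold at least 2 UMIs of B or T markers, which left 489 and 663 cells, Ctsl was at 0.613, Ctsb at 1.16 and Lamp1 at 0.853. The part of NK and neutrophil transcripts in these ratios was not tested.

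In monocyte-like cells Ctsl and Ctsd were past 1.5-fold lower and 0 members were past it higher, where 9.05% of all genes were past it lower and 14.9% higher. Ctsl was at 497 CPM in the wild type (2234 UMIs in 814 cells) and at 197 CPM in the library labelled transgenic (426 UMIs in 437 cells), for a ratio of 0.396 (0.356 to 0.440), and Ctsd had a ratio of 0.634 (0.578 to 0.694). A Ctsl UMI was found in 76.0% and 42.3% of these cells at median depths of 5715.5 and 5054 UMIs, or in 33.6% and 14.7% after thinning. The 5 cells richest in Ctsl held 4.61% and 22.8% of its UMIs in this cluster. Lamp1 was at 0.744 (0.694 to 0.798), Ctsb at 0.808 (0.765 to 0.853), Ctss at 0.880 (0.851 to 0.910), Ctsz at 0.895 (0.838 to 0.955) and Lgmn at 0.944 (0.880 to 1.01).

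The monocyte-like cells of the libraries differed in their markers. Macrophage markers summed to 1788 and 2892 CPM, with 8 of 10 higher in the library labelled transgenic and 0 at 0 in either. Dendritic markers summed to 106 and 534 CPM, with 8 of 10 higher, and neutrophil markers to 2464 and 153 CPM, with 1 of 10 higher. The lower neutrophil markers are not particular to this cluster. Their ratio was 0.062 here, 0.043 in B-like and 0.056 in dendritic-like cells, and below 1 in every coarser cluster. Among the finer clusters, the monocyte-like one (636 and 390 cells) gave 512 and 262 CPM of Ctsl, for a ratio of 0.511 (0.461 to 0.566). Finer cluster 11 (217 and 51 cells), whose leading genes are Arg1, Saa3 and Nos2, gave 504 and 168 CPM, for a ratio of 0.333 (0.235 to 0.458). Ctsd was at 0.804 (0.732 to 0.881) in the first and 0.615 (0.472 to 0.791) in the second, so it was below the inverse of 1.5 in finer cluster 11 only. Ctsb, below 1 in the coarser cluster, was not lower in either, at 1.01 (0.953 to 1.07) and 1.08 (0.957 to 1.23). Ctss lay on opposite sides of 1, with 0.806 (0.777 to 0.835) and 1.32 (1.19 to 1.45). Macrophage and dendritic markers were also higher within the finer monocyte-like cluster, with ratios of 1.65 and 3.14. Their part in the Ctsl ratio was not tested. These finer clusters do not hold all monocyte-like cells: 583 of 814 and 336 of 437 belong to the finer monocyte-like one. Finer cluster 11 can add at most 217 and 51. In the library labelled transgenic, dendritic markers summed to 295 and 189 CPM in these finer clusters, against 534 CPM in the coarser one. The part of cells outside both in the coarser ratios was not tested.

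Transcript-rich barcodes outside the clusters that were closest to the monocyte-like cluster gave a different value for Ctsl. Barcodes with at least 2200 genes were assigned to the class under whose profile their counts were most probable, without use of the listed lysosome genes. Of clustered cells held out for a check, 84.1% of macrophage-like and 75.4% of monocyte-like ones went to their own class. Clustered cells have at most 2213 genes, so the check does not show how well transcript-rich barcodes were assigned or whether some are doublets. Those assigned to cluster 7 (678 and 556) had medians of 27304 and 27427 UMIs, against 848 and 889 in its clustered cells. The barcodes closest to the macrophage-like cluster (342 and 344) had 486 and 323 CPM of Ctsl, for a ratio of 0.664 (0.617 to 0.715), near that of the clustered cells. Ctsb in them was at 0.868 (0.839 to 0.899) and Lgmn at 0.869 (0.833 to 0.907), on the other side of 1 from the clustered cells. Npc2 was at 1.02 (0.974 to 1.06) and Lipa at 1.19 (1.03 to 1.39), while Ctsd, Ctss, Ctsz and Lamp1 stayed below 1. The barcodes closest to the monocyte-like cluster numbered 620 and 74. They had 534 and 680.1 CPM of Ctsl, for a ratio of 1.27 (1.16 to 1.40), and 478 and 569 CPM of Ctsd, for a ratio of 1.19 (1.08 to 1.31), so both genes lay on the other side of 1. Ctsb was above 1 in them too, at 1.07 (1.00 to 1.14). Lipa stood in them at 68.8 and 134 CPM, for a ratio of 1.95 (1.57 to 2.41), and Lamp1 at 724 and 489 CPM, for a ratio of 0.676 (0.609 to 0.749). With these barcodes added to the monocyte-like cluster, Ctsl was at 0.635 and Ctsd at 0.775, and Ctsl alone stayed past 1.5-fold.

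**Figure D3:**
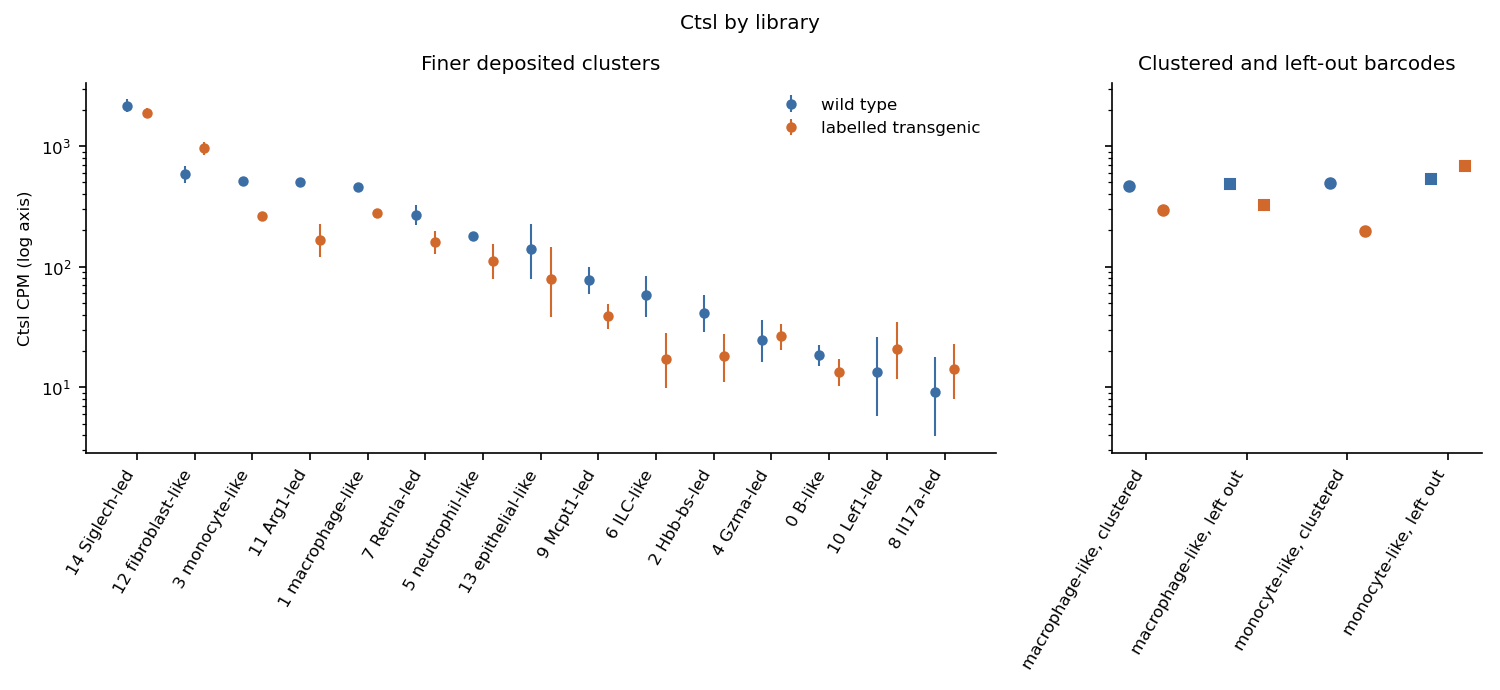
Ctsl level (CPM, log axis) in the 15 finer clusters, ordered by the wild type level, on the left, and in clustered cells (circles) and transcript-rich left-out barcodes (squares) of the macrophage-like and monocyte-like classes on the right; blue is wild type, orange the library labelled transgenic, and bars on the left are exact Poisson 95% intervals. The orange point lies below the blue one in finer clusters 3 and 11 (262 against 512 and 168 against 504 CPM) and above it in left-out monocyte-like barcodes (680 against 534 CPM).

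Over the 14 finer clusters with at least 50 cells in each library, Ctsl had a ratio below 1 in 10, with the whole interval below 1 in 9. The clusters above 1 were the fibroblast-like one at 1.65 (1.35 to 2.03) and finer clusters 4, 8 and 10, whose Ctsl levels were between 9.09 and 26.5 CPM and whose intervals included 1. Some clusters below 1 were low in Ctsl as well. The finer B-like cluster stood at 18.5 and 13.4 CPM, finer cluster 2 at 41.6 and 18.1 CPM and the ILC-like finer cluster 6 at 58.2 and 17.2 CPM. Lamp1 was below 1 in 12 of 14, with the interval below 1 in 5. Npc2 was above 1 in 11 of 14, with the interval above 1 in 6. In finer cluster 11 it stood at 978 and 1509 CPM, for a ratio of 1.54 (1.37 to 1.74). The share of all genes below or above 1 in the finer clusters was not counted. The clusters share 2 libraries, so the numbers of clusters in each direction are not independent observations.

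In dendritic-like cells 3 members were past 1.5-fold lower, Ctsd, Lgmn and Lamp1. Ctsd was at 111 CPM in the wild type and 48.9 CPM in the library labelled transgenic, on 77 and 78 UMIs, for a ratio of 0.439 (0.316 to 0.609). Lgmn was at 0.551 (0.436 to 0.698) and Lamp1 at 0.581 (0.471 to 0.719). Macrophage-like cells stand well above dendritic-like ones for each of these genes, and macrophage markers in the dendritic-like cluster summed to 126 and 87.1 CPM, with 3 of 10 higher and 2 and 1 at 0; their part was not tested. With the transcript-rich barcodes added, Ctsd was at 0.665 and Lgmn at 0.837. Without cells holding at least 2 UMIs of B or T markers, Ctsl had a ratio of 0.507, against 0.841 (0.726 to 0.977) with them. Finer cluster 14, on which the Ctsl level rests, itself had 427 and 647 CPM of T markers, at median depths of 5168 and 5571.5 UMIs. The filter can therefore take out cells of finer cluster 14 as well as mixed cells, and how many it took out was not counted. Npc2 was at 1.25 (1.12 to 1.40), within 1.5-fold.

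Fibroblast-like cells, most of which had no Ptprc UMI, were the only coarser cluster with Ctsl past 1.5-fold higher. The levels were 584 CPM in the wild type and 940.5 CPM in the library labelled transgenic, on 147 and 273 UMIs, for a ratio of 1.61 (1.31 to 1.98). Lgmn was also past it, at 246 and 431 CPM, for a ratio of 1.75 (1.28 to 2.41). Of the Lgmn UMIs 35.5% and 31.2% came from 5 cells, and macrophage markers summed to 266 and 465 CPM in this cluster, with 7 of 10 higher and 5 and 2 at 0. Without cells holding at least 2 UMIs of B, T or macrophage markers, which left 69 and 74 cells, Ctsl was at 1.75 and Lgmn at 2.01. With transcript-rich barcodes added they were at 1.25 and 1.25, and 0 members were past 1.5-fold.

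Neutrophil-like cells were fewer and shallower in the library labelled transgenic (167 cells with a median of 1751 UMIs, against 648 with 3528.5), and the median gene had a log2 ratio of 0.63. Neutrophil markers made up 257187 and 98129 CPM. Beside that shift Ctss was at 161 and 466 CPM, for a ratio of 2.90 (2.39 to 3.50), Lgmn at 52.9 and 182 CPM, for a ratio of 3.43 (2.49 to 4.69), and Npc2 at 137 and 275 CPM, for a ratio of 2.01 (1.58 to 2.54). Divided by the ratio of the median gene, they were 1.87, 2.22 and 1.299. Macrophage markers in this cluster summed to 338 and 1014 CPM, with 9 of 10 higher and 0 at 0 in either, and 5 cells held 28.4% and 50% of the Lgmn UMIs. Without cells that hold at least 2 UMIs of B, T or macrophage markers, which left 522 and 126 cells, Ctss was at 3.38, Lgmn at 1.68 and Npc2 at 1.71. With transcript-rich barcodes added, which took the cells from 648 to 680 and from 167 to 168, Ctss was at 1.74. Ctsl was past 1.5-fold lower, at 179 and 115 CPM, for a ratio of 0.643 (0.449 to 0.896). Ctsd, at 1.02 (0.869 to 1.20), Lamp1, at 1.41 (1.06 to 1.86), Ctsz, at 0.994 (0.722 to 1.34), Lipa, at 0.929 (0.385 to 1.94), and Ctsb, at 0.717 (0.594 to 0.860), lay below the shift of all genes.

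In B-like cells 0 of 9 members were past 1.5-fold, with ratios from 0.727 (0.541 to 0.973) for Ctsl to 1.17 (0.903 to 1.504) for Lipa. In cluster 2 Lgmn, at 0.574 (0.403 to 0.821), and Lipa, at 0.570 (0.415 to 0.784), were past it lower. Cluster 4 had Ctss at 0.635 (0.529 to 0.762) and Lipa at 0.605 (0.429 to 0.853), with Ctsb just inside the limit at 0.668 (0.591 to 0.755). The libraries fill cluster 4 differently: 253 of 455 wild type and 489 of 741 other cells belong to the Gzma-led finer cluster 4. Ctss had a ratio of 0.984 (0.768 to 1.27) in that finer cluster and 0.665 (0.543 to 0.814) in the Il17a-led finer cluster 8, and Ctsb 0.967 (0.803 to 1.17) and 0.585 (0.504 to 0.677). Among the cells of cluster 4 in finer cluster 4 alone, Lgmn was at 1.56, against 0.757 in the whole cluster, and 1 member was past 1.5-fold higher and 1 lower. Cluster 5 had Ctsl at 0.489 (0.366 to 0.652) and Ctsd at 0.607 (0.486 to 0.757), and cluster 7 had Ctsl at 0.384 (0.183 to 0.763) on 29 and 13 UMIs. In the largest finer cluster of cluster 5, Ctsd was at 0.910 and no longer past 1.5-fold, Ctsl was at 0.519, and Lgmn at 1.54 and Lipa at 1.61 were past it higher. Clusters 5 and 7 are shallow, with medians of 1154 and 1027 and of 848 and 889 UMIs. In clusters 4 and 2, where Ctsl was near background, its ratios were 1.04 (0.659 to 1.66) and 0.724 (0.479 to 1.103).

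The rest of the lysosomal pathway was read from 100 further listed genes with a row in the tables. In macrophage-like cells 92 of them had at least 20 UMIs, and 8 were past 1.5-fold higher and 3 lower. Of all genes 8.66% were past it higher and 8.52% lower, so the 8 were near that share and the 3 under it. The median log2 ratio of the listed genes was -0.15 against -0.04 for all genes. Their counts were 4 higher and 4 lower without cells holding 2 UMIs of B or T markers, and 5 and 3 with transcript-rich barcodes added. The genes lower were Ifi30, the thiol reductase of the class II pathway, at 1171 and 751 CPM and a ratio of 0.641 (0.608 to 0.676), the glucuronidase Gusb at 0.639 (0.555 to 0.736) and Mitf, a relative of TFEB, at 0.622 (0.470 to 0.824). Of those higher, Ctsw, a cathepsin of cytotoxic lymphocytes, stood at 6.22 and 36.9 CPM on 14 and 136 UMIs, for a ratio of 5.93 (3.42 to 11.1), beside the NK and T markers that were higher in the same cluster. Lyz1, a lysozyme and close copy of Lyz2 whose counts may be shared with it, was at 1.73 (1.24 to 2.46). The sorting receptor Igf2r was at 1.98 (1.13 to 3.63), Ctsf at 1.76 (1.09 to 2.92) and Tfeb at 1.52 (1.06 to 2.22). Arsb at 1.55 and Cst7 at 1.63 had intervals that included 1.

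Abundant genes of these lists differed less in macrophage-like cells. Lyz2 was at 0.892 (0.874 to 0.911), the cystatin Cst3 at 1.09 (1.06 to 1.13), the membrane protein Laptm5 at 0.979 (0.932 to 1.03), the proton pump subunit Atp6v0c at 0.832 (0.789 to 0.877), progranulin (Grn) at 0.957 (0.891 to 1.03) and the hexosaminidase Hexa at 1.101 (1.00 to 1.21). Ctsc, which activates granule proteases, stood at 1535 and 1056 CPM, for a ratio of 0.688 (0.657 to 0.720), just inside 1.5-fold.

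**Figure D4:**
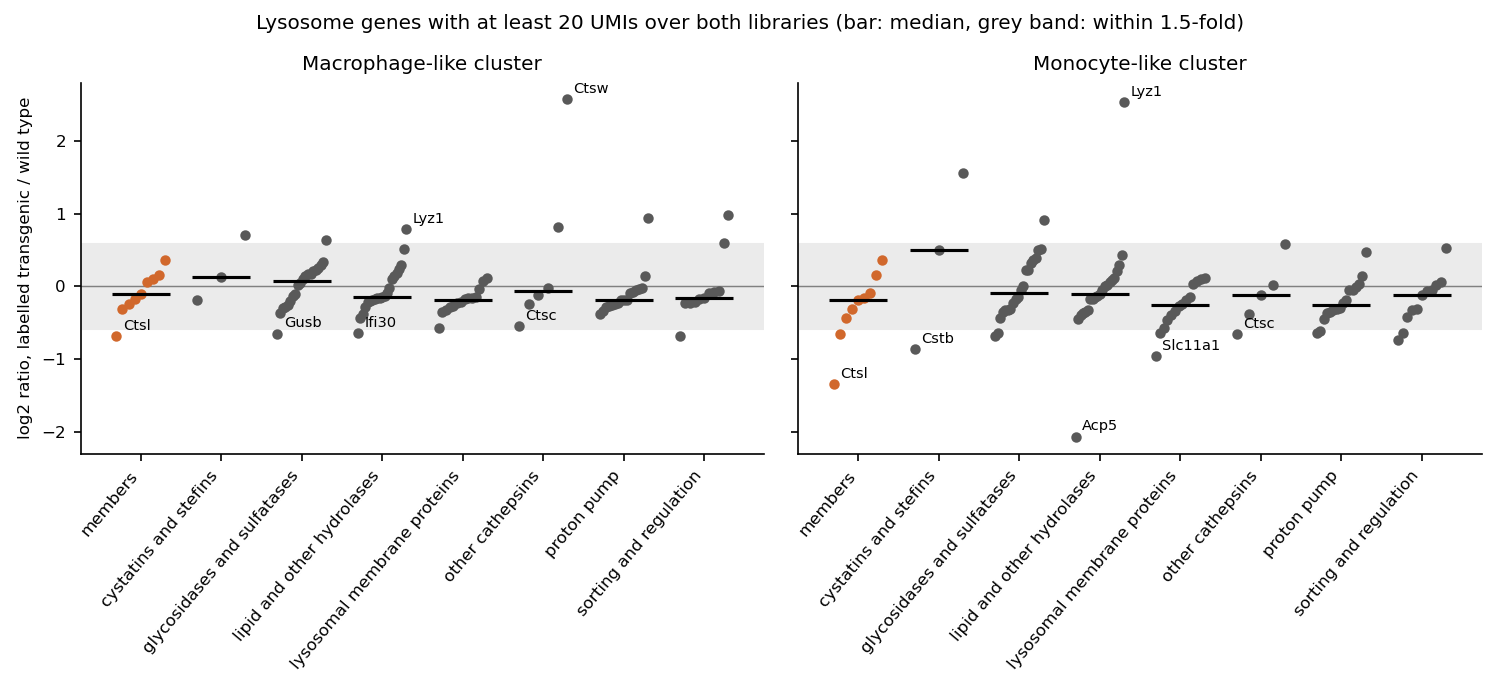
Log2 ratio, library labelled transgenic over wild type, of lysosome genes with at least 20 UMIs by list, in macrophage-like (left) and monocyte-like (right) cells; members are in orange, each dot is 1 gene, black bars are list medians and the grey band marks ratios within 1.5-fold. The medians of the proton pump list are -0.18 and -0.26, and Acp5 is the lowest dot in monocyte-like cells, at -2.06.

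In monocyte-like cells 90 of the further genes had at least 20 UMIs, and 4 were past 1.5-fold higher and 11 lower. Of all genes 14.9% were past it higher and 9.05% lower, so the 4 were under that share and the 11 somewhat above it. The median log2 ratio of the listed genes was -0.15 against 0.08 for all genes. Lower outnumbered higher in most alternatives, such as 3 higher and 12 lower under median-of-ratios scaling and 4 and 10 in the largest finer cluster. The lean was smaller with the mean of per-cell CPM, at 3 and 5. It was absent with transcript-rich barcodes added, at 7 and 7, and with 2-fold in place of 1.5-fold, at 2 and 1. Acp5, the tartrate-resistant acid phosphatase, was furthest below the wild type, at 571 and 137 CPM on 2569 and 296 UMIs, for a ratio of 0.239 (0.212 to 0.270). The metal transporter Slc11a1 of the phagosome membrane was at 0.515 (0.438 to 0.603), the cathepsin inhibitor Cstb at 0.551 (0.516 to 0.587) and Ctsc at 0.638 (0.602 to 0.676). Subunits of the proton pump that acidifies the lysosome, Atp6v1d and Atp6v1e1, were at 0.645 (0.541 to 0.765) and 0.655 (0.574 to 0.746). The sialidase Neu1 was at 0.642 (0.509 to 0.804) and the membrane protein Tmem192 at 0.644 (0.470 to 0.871). Sort1 at 0.599 and Naglu at 0.623 had intervals that included 1. Higher were Lyz1, at 16.7 and 96.1 CPM and a ratio of 5.76 (4.41 to 7.61), and the sulfatase Ids, at 1.87 (1.28 to 2.74). The neutrophil, macrophage and dendritic markers that differ in this cluster stand beside these values too, and their part was not tested.

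By list, the proton pump genes had 0 past 1.5-fold higher and 2 lower of 16 in monocyte-like cells, the lysosomal membrane proteins 0 and 2 of 14, the glycosidases and sulfatases 1 and 2 of 20, the lipid and other hydrolases 1 and 1 of 21, and the sorting and regulation genes 0 and 2 of 11. Other cathepsins had 1 and 1 of 5 and the cystatins and stefins 1 and 1 of 3. In macrophage-like cells the lists in this order had 1 and 0 of 17, 0 and 0 of 14, 1 and 1 of 20, 1 and 1 of 21, 2 and 1 of 11, 2 and 0 of 6, and 1 and 0 of 3. Beside these small counts, 14.9% and 9.05% of all genes were past it in monocyte-like cells, and 8.66% and 8.52% in macrophage-like cells. The median log2 ratio of the membrane proteins was -0.19 in macrophage-like and -0.25 in monocyte-like cells, and that of the glycosidases and sulfatases 0.08 and -0.10.

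Within the macrophage-like cluster the members differed between cells with and without markers of long-lived tissue macrophages. Cells with a UMI of Cd163, Folr2 or Lyve1 (145 wild type and 275 other cells, with median depths of 2898 and 2788 UMIs) were set against the rest, a grouping made with the data in view (519 and 831 cells, 3209 and 3180 UMIs). Higher in the first were Ctsd, with ratios of 1.65 (1.46 to 1.86) and 1.76 (1.59 to 1.94) in the wild type and the library labelled transgenic, Lamp1 with 1.62 (1.46 to 1.79) and 1.47 (1.34 to 1.60), and Ctsb with 1.48 (1.38 to 1.59) and 1.59 (1.51 to 1.66). Lower were Ctss, with 0.623 (0.576 to 0.674) and 0.607 (0.570 to 0.646), and Ctsz, with 0.738 (0.641 to 0.847) and 0.828 (0.747 to 0.918). The direction was the same in both libraries for these 5 genes, with intervals clear of 1. Ctsl was at 541 and 454 CPM in the wild type, for a ratio of 1.19 (1.03 to 1.38), and at 429.7 and 255 CPM in the library labelled transgenic, for a ratio of 1.68 (1.48 to 1.91), so the lower Ctsl of that library was seen in cells with and without these markers. Lgmn had 1.39 (1.29 to 1.504) and 1.08 (1.02 to 1.15), Npc2 0.938 (0.844 to 1.04) and 0.802 (0.742 to 0.867), and Lipa 1.18 (0.806 to 1.69) and 1.35 (1.07 to 1.71).

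**Figure D5:**
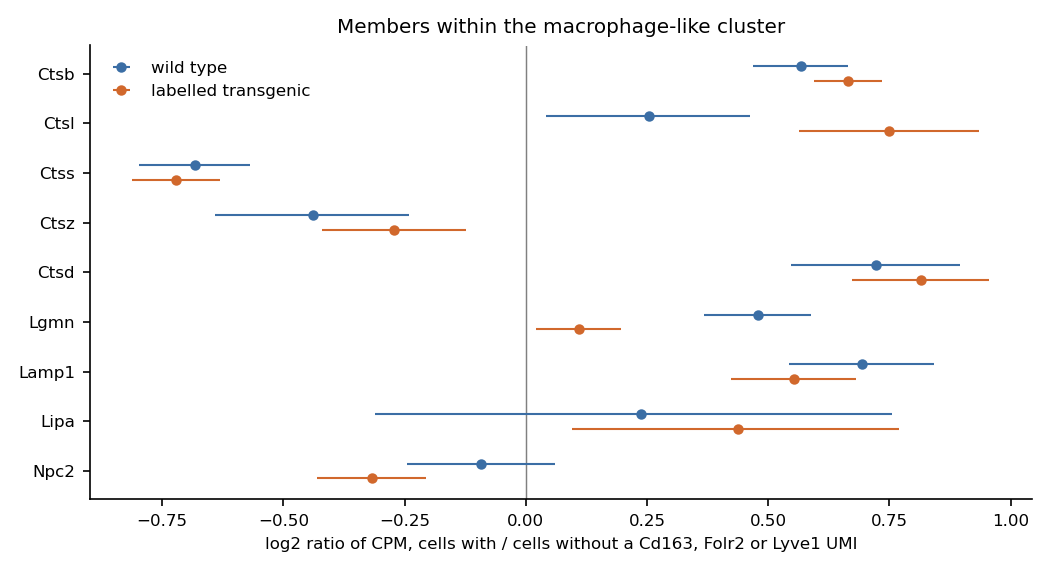
Log2 ratio of CPM between macrophage-like cells with and without a UMI of Cd163, Folr2 or Lyve1 for the 9 genes, in the wild type library (blue) and the library labelled transgenic (orange); bars are 95% intervals for counting error. Ctsb, Ctsd and Lamp1 lie right of 0 and Ctss and Ctsz left of it in both libraries.

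The genes whose levels ran most like each member were found over the 14 finer clusters with at least 50 cells in the wild type library, as Pearson's r of log2(CPM + 10) over 7751 genes. Finer cluster 14, where Ctsl and Ctsb were highest, had fewer cells and is left out of these values. The clusters share 1 library and differ in depth, so the values describe these clusters and carry no test. Ctss was closest to Ifi30 (0.94), Gm6377 (0.93) and Ctsz (0.92), and Ctsz to Ctsh (0.95), Gm6377 (0.93) and Ctss (0.92). Lgmn ran with Psap (0.92), Lamp1 (0.92) and P2ry6 (0.91), and Lamp1 with Sdc3 (0.96) and Plod3 (0.95). Ctsb was closest to Grn (0.92), Ly96 (0.90) and Itgb5 (0.90), Ctsd to Dusp1 (0.90), Ctsb (0.88) and Sdcbp (0.87), and Ctsl to App (0.95), Plod3 (0.95) and Bach1 (0.95). Npc2 ran with Ctsa (0.88), Ms4a6d (0.86) and Cndp2 (0.85), and Lipa with Emp3 (0.90), Lcmt1 (0.88) and Ssbp4 (0.85). In the library labelled transgenic r was 0.89 for Lamp1 and Sdc3 and 0.90 for Ctss and Ifi30, against 0.64 for Ctsl and Bach1 and 0.34 for Lipa and Emp3. Among the members themselves r in the wild type ran from 0.16 for Ctsl and Lipa to 0.92 for Ctss and Ctsz.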

How the data were processed

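Colon lamina propria CD45+ cells were loaded onto 10x Genomics 5′ v1.1 chips, 1 library per genotype. Per the submitters' processing notes, the authors used Cell Ranger 5.0.0, Seurat 4.0 and mm10. The authors deposited raw UMI count tables of genes by cells and a metadata table that assigns cells to clusters; those cluster labels, a field of another kind than a count, were used as deposited. The members and lists were chosen with earlier results of these data known. UMI counts were summed per cluster and library and scaled to CPM (Python 3.11.15, numpy 2.4.6, pandas 2.3.3), with exact intervals from scipy 1.17.1; the calculation of ratios was tested on simulated data. Depth was 20511285 and 19962473 UMIs in clustered cells. No doublet caller was run. Clusters were named from marker lists; a name needed at least 3 of them 2-fold up, at least 2 among the 10 leading genes with few of another class, and a marker UMI in at least 50% of cells. Tables hold 38 duplicated symbols, kept as separate rows. Beside the members, the genes named are listed lysosome genes past 1.5-fold with at least 50 UMIs in macrophage-like or monocyte-like cells, ranked by the interval bound nearest to 1, up to 10 in each direction, and the gene of each list with the most UMIs in macrophage-like cells. The genes most like each member are the 3 with the highest r; 1 of these is not reported here. The finer clusters, the Cd163, Folr2 or Lyve1 grouping and alternatives in scaling, totals, cells counted, fold and count minimum were computed in the same way.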

Additional observations from a re-analysis of the deposited data

Results flagged for a closer look

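Members lay past 1.5-fold in opposite directions in different clusters, and the difference between the clusters was not tested. Ctsl had a ratio of 1.61 in fibroblast-like cells, but 0.625 in macrophage-like, 0.396 in monocyte-like and 0.643 in neutrophil-like cells, 0.489 in cluster 5 and 0.384 in cluster 7. Ctss had a ratio of 2.90 in neutrophil-like cells and 0.635 in cluster 4. Lgmn had ratios of 3.43 in neutrophil-like and 1.75 in fibroblast-like cells, but 0.574 in cluster 2 and 0.551 in dendritic-like cells. Barcodes outside the deposited clusters also held members past 1.5-fold. Ctsl was at 0.664 in transcript-rich barcodes closest to the macrophage-like cluster, and Lipa was at 1.95 in those closest to the monocyte-like cluster.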

How the results depend on the processing

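Of the 90 ratios, 85 kept their direction under median-of-ratios scaling, 88 with totals without the 20 top genes, 87 with the mean of per-cell CPM, 86 in cells with at least 1500 UMIs and 80 with transcript-rich barcodes added. Alternatives chosen after seeing the data kept the direction of 83 of 90 (only the largest finer cluster), 90 of 90 (without shared barcodes) and 54 of 54 in named clusters (without cells holding 2 UMIs of B, T or macrophage markers). With 2-fold in place of 1.5-fold the members past it numbered 0 in macrophage-like cells, cluster 2, cluster 4 and fibroblast-like cells and 1 in monocyte-like cells, cluster 5 and dendritic-like cells; the further lysosome genes numbered 1 in macrophage-like and 3 in monocyte-like cells. Transcript-rich barcodes left 1 member in monocyte-like cells, cluster 4 and cluster 5 and 0 in cluster 7 and fibroblast-like cells. The largest finer cluster gave 1 in monocyte-like cells and 2 in cluster 7, cells with at least 1500 UMIs gave 2 in cluster 7, a minimum of 100 UMIs gave 0 there, and the mean of per-cell CPM gave 1 in cluster 5. Median-of-ratios scaling gave 7 in neutrophil-like cells, 2 higher and 5 lower, with Ctss at 1.85, Lgmn at 2.19 and Npc2 at 1.28. Without marker-bearing cells 5 members were past it in dendritic-like cells. Further lysosome genes past 1.5-fold numbered 17 with no count minimum and 6 with a minimum of 100 UMIs in macrophage-like cells, and 25 with no minimum and 8 with the mean of per-cell CPM in monocyte-like cells. The cause of these moves was not tested, apart from the stricter fold and the count minima, which change how many genes can pass. With the largest finer cluster the Ctsl ratio in cluster 2 was 0.285, and in cluster 7 it ranged up to 0.724 with transcript-rich barcodes and down to 0.153. The barcodes added to cluster 7 hold 19184886 and 15833080 UMIs, against 399769 and 466488 in its clustered cells, so the value with them is mostly theirs. The wider set of markers planned as a stand-in for doublets left under 20 cells of a library in clusters other than the B-like one, such as 19 and 15 macrophage-like cells, so that it gave values for B-like cells only. With finer clusters weighted equally, 119 of 180 levels stayed within their counting interval and 7 moved by over 1.5 times, 6 of them in dendritic-like cells. Of the 27 genes found most like a member, 20 remained with a pseudocount of 1 and 20 with 100. No paired analysis was possible because each genotype has 1 library. Depth did not resolve the order of Lipa levels.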
